A study of Mus musculus with 2 samples.

Results

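The genes described are the immediate early factors of the Nr4a, Egr and AP-1 families, most of which T cells induce within minutes of receptor stimulation. They are Nr4a1, Nr4a2, Nr4a3, Egr1, Egr2, Egr3, Fos, Jun, Junb and Jund. They were taken by symbol from the deposited tables, and all 10 were found among the 23167 symbols measured. The study, a series on 5-hydroxymethylcytosine in T cell development, sequenced ribosomal-RNA-depleted total RNA from naive CD4 and naive CD8 T cells, with 1 library of each. Both came from Foxp3-GFP mice on a C57/BL6 background, in which cells that express the regulatory T cell factor Foxp3 are green. Cells from spleen and lymph nodes were sorted by flow cytometry as CD62Lhi, CD44lo, CD25- and negative for the Foxp3 reporter. The ages and number of the mice, and the time between dissection and lysis, are not stated in the labels. The labels name no stimulation of either group.

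Immediate early genes are transcribed without the need for new protein synthesis. Calcium and MAP kinase signals reach them through factors that already sit in the nucleus, chiefly CREB, SRF with its Elk partners, and MEF2. Nr4a proteins are orphan nuclear receptors whose reporters are used to read T cell receptor signal strength. Egr proteins are zinc finger activators, of which Egr2 and Egr3 also restrain T cell activation, and AP-1 is a dimer of basic leucine zipper proteins, typically a Fos with a Jun or a pair of Jun proteins. In naive T cells some of these genes, such as Nr4a1, are known to be kept at a low tone by contact with self peptides.

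Promoters are printed for the 3 Nr4a genes, of which Nr4a1 was higher and Nr4a2 lower in CD4. Those of Fos and Junb, which had the largest differences of the AP-1 genes among the 10, are printed as well. Windows of 300 bases, 250 before the annotated start and 50 after it, were taken from RefSeq on GRCm38.p6, which holds entries for 8 of the 10 genes. Capitals mark TGACG, the core of the cAMP response element (CRE) bound by CREB and ATF factors, or its reverse complement CGTCA. The Nr4a1 window lies at chr15:101266596-101266895 on the plus strand, Nr4a2 at chr2:57123954-57124253 on the minus strand, and Nr4a3 at chr4:48045055-48045354 on the plus strand. Fos lies at chr12:85473640-85473939 on the plus strand and Junb at chr8:84978699-84978998 on the minus strand, and each sequence is written 5′ to 3′ along its gene.
Nr4a1: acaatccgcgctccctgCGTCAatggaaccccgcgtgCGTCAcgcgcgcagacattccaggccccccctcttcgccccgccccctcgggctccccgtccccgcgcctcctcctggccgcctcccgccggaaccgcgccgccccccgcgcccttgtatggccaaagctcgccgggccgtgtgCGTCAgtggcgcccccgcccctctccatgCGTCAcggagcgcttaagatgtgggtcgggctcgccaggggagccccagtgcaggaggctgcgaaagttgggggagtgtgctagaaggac
Nr4a2: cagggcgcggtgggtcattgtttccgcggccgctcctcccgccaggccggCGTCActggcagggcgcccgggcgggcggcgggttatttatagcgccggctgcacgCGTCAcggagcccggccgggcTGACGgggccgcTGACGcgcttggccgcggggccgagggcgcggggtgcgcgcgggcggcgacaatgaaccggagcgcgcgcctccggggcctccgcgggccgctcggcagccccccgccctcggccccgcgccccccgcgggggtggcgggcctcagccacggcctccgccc
Nr4a3: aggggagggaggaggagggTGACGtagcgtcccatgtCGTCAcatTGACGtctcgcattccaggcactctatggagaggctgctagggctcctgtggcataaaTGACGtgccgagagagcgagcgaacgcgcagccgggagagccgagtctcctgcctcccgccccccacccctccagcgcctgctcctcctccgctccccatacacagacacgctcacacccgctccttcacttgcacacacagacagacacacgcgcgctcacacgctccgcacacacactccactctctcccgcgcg
Fos: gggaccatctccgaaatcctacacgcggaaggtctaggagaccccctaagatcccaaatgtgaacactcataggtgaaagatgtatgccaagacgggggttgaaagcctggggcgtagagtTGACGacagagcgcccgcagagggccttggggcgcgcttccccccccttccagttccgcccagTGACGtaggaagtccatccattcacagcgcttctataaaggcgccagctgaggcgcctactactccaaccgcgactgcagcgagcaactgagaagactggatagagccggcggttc
Junb: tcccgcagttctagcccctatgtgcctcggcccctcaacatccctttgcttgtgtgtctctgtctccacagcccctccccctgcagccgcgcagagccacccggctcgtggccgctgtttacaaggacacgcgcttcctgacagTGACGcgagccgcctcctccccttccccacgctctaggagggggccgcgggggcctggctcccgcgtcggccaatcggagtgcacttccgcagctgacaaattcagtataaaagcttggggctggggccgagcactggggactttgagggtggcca

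Each of the 3 Nr4a windows held 4 CRE cores, all before the start of the gene. In Nr4a1 they began 233, 213, 69 and 40 bases before the start, in Nr4a2 200, 144, 123 and 111 bases before it, and in Nr4a3 231, 213, 205 and 147 bases before it. Fos held 2, at 129 and 66 bases, and Junb held 1, at 106 bases. Of all 32851 RefSeq promoter windows, 20.8% held at least 1 core on either strand and 0.231% held 4 or more, a number picked after the matches were seen. The Jun and Jund windows held none, which says only that these letters are not in those windows. Egr2 has 5 annotated starts. The stretch shown here for its SRF motif lies in the window of the third, at chr10:67537777-67537846 on the plus strand, with a CArG box, the motif bound by SRF, in capitals 72 bases before that start and a CRE core 55 bases before it; another core, outside the stretch, lies 111 bases before it. At least 1 core was thus in 6 of the 8 genes. Egr2 is counted there over its 5 windows, of which those of the first and second starts held none, while the 20.8% is a share of single windows.
Egr2: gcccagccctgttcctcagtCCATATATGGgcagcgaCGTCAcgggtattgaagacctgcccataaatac
A CArG box was in 1.63% of all windows and, among the windows of the 8 genes, only in those of Egr2. There the windows of the other overlapping starts hold the same bases. The window of the second start holds another box 72 bases before that start. The full palindromic CRE, TGACGTCA, which contains the core on both strands, was in 1.79% of all windows, the AP-1 site TGANTCA in 7.81%, the Nr4a monomer site AAAGGTCA in 1.51% and the Egr site GCGTGGGCG in 0.612%. None of these 4 was in a window of the 8 genes. A match is a description of the sequence and not a measured binding site. The windows reach only 250 bases before a start, and bases further upstream were not searched. The lack of a match, as for the CArG box in the Fos window, thus does not show that a gene lacks the motif.

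**Figure D1:**
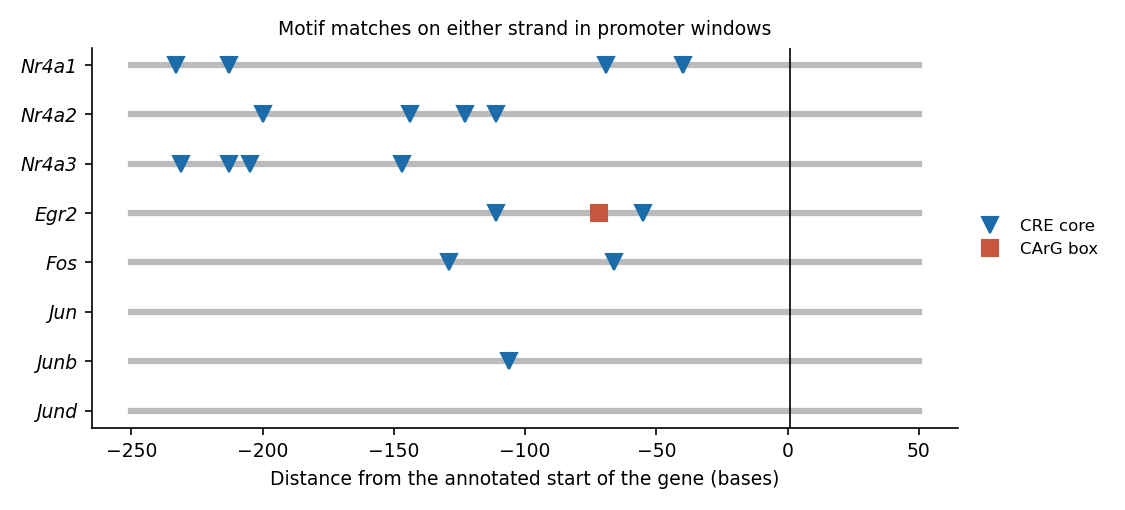
Positions of CRE cores (blue triangles) and CArG boxes (red square) in the RefSeq promoter window of each gene (rows), by distance from the annotated start in bases (x axis, vertical line at the start); Egr2 is shown for the third annotated start. The 3 Nr4a windows hold 4 cores each, Egr2 and Fos 2 each and Junb 1, and the Jun and Jund windows hold none.

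The deposited values are RPKM, reads per kilobase of gene and per 1000000 reads, which can be set side by side between genes. The CD4 values rest on a library total of 24741945 reads and the CD8 values on 23853921. With 1 library of each cell type no difference has a replicate check and no p-value is given. Intervals are 95% intervals for counting error only and compare these libraries. The sorts matched their labels, with 3 CD4 T cell markers summing to 389 RPKM in CD4 against 11.1 RPKM in CD8 and 2 CD8 T cell markers summing to 23.9 RPKM in CD4 against 1306 RPKM in CD8. All 6 T cell markers were above 1 RPKM in both libraries, with a summed level of 2081 RPKM in CD4 against 2027 RPKM in CD8. Of 11 myeloid markers in the files 5 reached 1 RPKM in each library and Cd14 was at 0 in both, with sums of 14.9 RPKM in CD4 against 11.5 RPKM in CD8. Of 8 B cell markers only Cd79b reached 1 RPKM, at 2.14 RPKM in CD4 against 28.8 RPKM in CD8, and the other 7 summed to 1.37 RPKM in CD4 against 1.59 RPKM in CD8. Of 6 NK cell markers 1 reached 1 RPKM in CD4 and 3 did in CD8, with sums of 35.3 RPKM in CD4 against 60.6 RPKM in CD8, most of it Prf1. Dendritic cell markers summed to 0.436 RPKM in CD4 against 1.27 RPKM in CD8, and of 6 stromal and endothelial markers only Pecam1, which T cells also express, reached 1 RPKM, at 105 RPKM in CD4 against 52.4 RPKM in CD8. Erythroid markers summed to 0.226 RPKM in CD4 against 0.192 RPKM in CD8. In bulk RNA, fewer cells that express a gene and less of its RNA per cell cannot be told apart, and the part of other cells in the results below was not tested.

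All 10 genes were read in both libraries, at levels that spanned from 0.303 to 108 RPKM in CD4 and from 0.804 to 166 RPKM in CD8. The AP-1 genes made up most of the signal. Fos and the 3 Jun genes held 90.2% of the summed RPKM of the 10 genes in CD4 and 93.0% in CD8, and Junb alone held 38.2% in CD4 and 46.5% in CD8. One gene, Nr4a2, differed by at least 2-fold on the fixed scale of log2(RPKM + 1), and it was lower in CD4. None of the 10 was at least 2-fold higher in CD4. Among the 10228 genes at 1 RPKM or more in at least 1 library, 2.41% (247 genes) passed 2-fold toward CD4 and 3.07% (314 genes) passed it toward CD8, and 1 gene of 10 is too few to read against such shares. After rescaling both libraries to sum to 1000000, which multiplies every RPKM ratio of CD4 over CD8 by 1.16, the counts over all genes were 600 toward CD4 and 324 toward CD8. Before it the RPKM summed to 457587 in CD4 and 530342 in CD8, so it also raised all values against the fixed pseudocount and minimum of 1 RPKM. These 2 counts thus mix the shift in ratio with those changes. As a group the 10 genes had a median log2 difference, CD4 minus CD8, of 0.05, beside 0.08 for all compared genes, with 5 of the 10 above 0 and 5 below. Members of the same family were found on both sides.

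**Figure D2:**
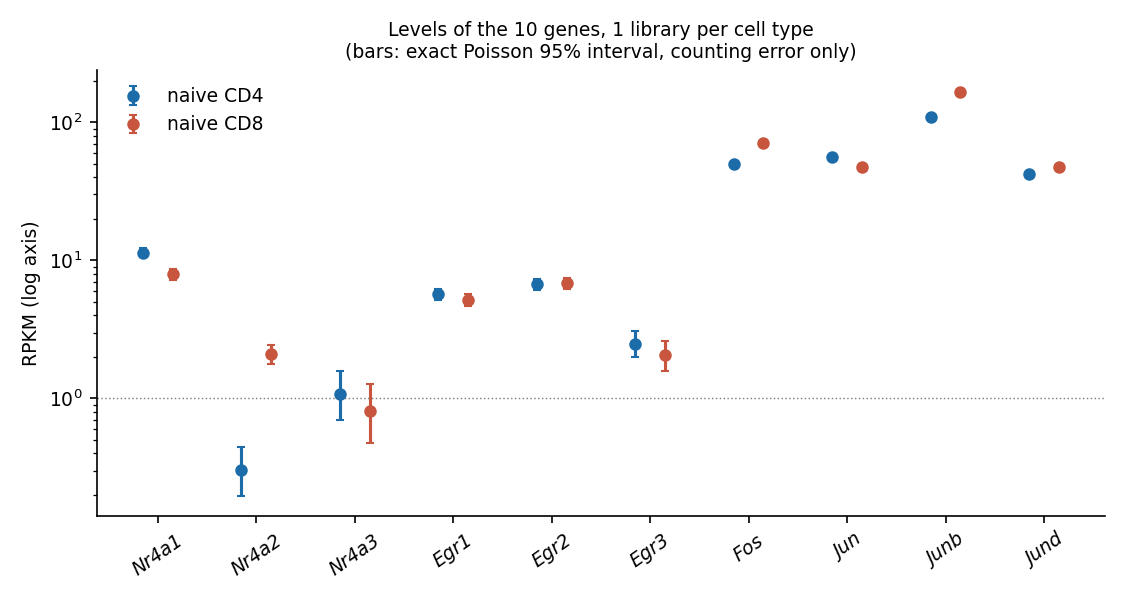
RPKM of each gene (log axis) in the naive CD4 library (blue, left of each pair) and the naive CD8 library (red), with exact Poisson 95% intervals for counting error and a dotted line at 1 RPKM. Junb is the highest gene in both libraries, at 108 RPKM in CD4 against 166 RPKM in CD8, and only Nr4a2 shows a gap of at least 2-fold on the fixed scale.

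Nr4a1, which encodes Nur77 and is the Nr4a gene whose reporters follow receptor signalling in T cells, was the main Nr4a transcript in both libraries. It was at 11.4 RPKM in CD4 (interval 10.6 to 12.3, 696 reads) against 7.91 RPKM in CD8 (7.21 to 8.66, 466 reads). It was higher in CD4, with an RPKM ratio of CD4 over CD8 of 1.44 (1.28 to 1.62), and 12.6% of compared genes lay further toward CD4.

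Nr4a2, which encodes Nurr1, stood the other way. It was at 0.303 RPKM in CD4 (0.196 to 0.447, 25 reads) against 2.08 RPKM in CD8 (1.78 to 2.43, 166 reads). The CD4 over CD8 ratio was 0.145 (0.0913 to 0.222), so the level in CD4 was lower by 6.89-fold (4.51 to 10.9). Its log2 difference with the pseudocount was -1.24, and 1.86% of compared genes lay further toward CD8. With a pseudocount of 5 RPKM that difference shrank to -0.42, under the 2-fold size. Nr4a3, which encodes Nor1, was at 1.08 RPKM in CD4 (0.696 to 1.59, at least 25 reads) against 0.804 RPKM in CD8 (0.476 to 1.27, at least 18 reads). Its ratio of 1.34 had an interval of 0.702 to 2.61 from the smallest reads that the values allow, which held 1. With the 150 reads in CD4 and 108 in CD8 that its annotated length would give, an alternative chosen after seeing the data, the interval was 1.04 to 1.73, so whether it holds 1 depends on a gene length that the files do not state.

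The Nr4a family thus had a different make-up in the 2 libraries. The 3 genes summed to 12.8 RPKM in CD4 against 10.8 RPKM in CD8, a ratio of 1.18. That ratio was 1.37 after rescaling both libraries to sum to 1000000. It was 1.12 when centred on the median gene at 1 RPKM or more in both libraries. Nr4a1 held 89.2% of the family in CD4 and 73.3% in CD8, while Nr4a2 held 2.37% in CD4 and 19.3% in CD8. Nr4a3 held 8.43% in CD4 and 7.44% in CD8. The ratio of Nr4a1 to Nr4a2 was 37.6 in CD4 and 3.80 in CD8. The quotient of those ratios was 9.92 (6.41 to 15.3), a value that no scaling of either library can change, since both genes are read in the same library.

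The Egr genes were close to equal in the libraries as deposited, and how far they lay toward CD4 depended on the scaling. Egr1, the zinc finger factor long used as a readout of MAP kinase signalling, was at 5.69 RPKM in CD4 (432 reads) against 5.18 RPKM in CD8 (379 reads). Egr2, the highest of the 3, was at 6.72 RPKM in CD4 (493 reads) against 6.83 RPKM in CD8 (483 reads). Egr3 was at 2.49 RPKM in CD4 (at least 87 reads) against 2.05 RPKM in CD8 (at least 69 reads). The CD4 over CD8 ratios were 1.10 (0.955 to 1.26) for Egr1, 0.984 (0.866 to 1.12) for Egr2 and 1.22 (0.876 to 1.69) for Egr3. All 3 intervals held 1. After rescaling both libraries to sum to 1000000 none did, with ratios of 1.27 (1.11 to 1.47) for Egr1, 1.14 (1.004 to 1.30) for Egr2 and 1.41 (1.02 to 1.961) for Egr3. The family sums had a ratio of 1.06 as deposited and 1.23 on that scale. It was 1.002 when centred on the median gene at 1 RPKM or more in both libraries. Rescaling to 1000000 multiplies the ratio of every gene by 1.16. The median ratio of compared genes read in both libraries was 1.06 as deposited. The log2 difference of Egr2, -0.02 as deposited, was 0.18 after rescaling to 1000000. It was 0.03 with scaling to the housekeeping list and -0.10 when centred on the median gene. The make-up of the family was also alike, with Egr1 at 38.2% in CD4 and 36.8% in CD8, Egr2 at 45.1% in CD4 and 48.6% in CD8, and Egr3 at 16.7% in CD4 and 14.6% in CD8. Within a library, Nr4a1 stood higher above Egr1 in CD4, at a ratio of 2.0, than in CD8, at 1.53. The quotient was 1.31 (1.09 to 1.57).

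**Figure D3:**
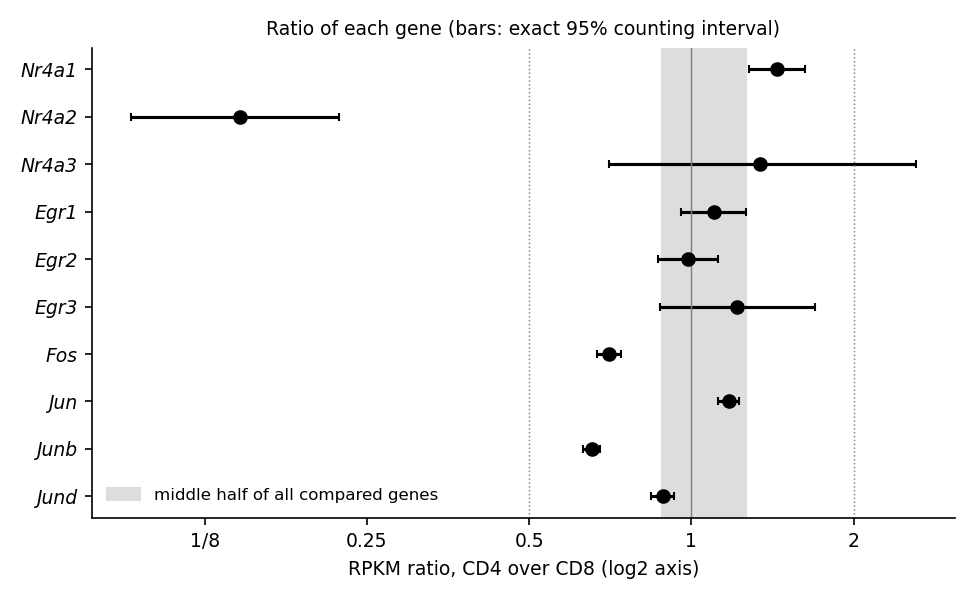
RPKM ratio of CD4 over CD8 (log2 axis) for each gene with its exact 95% counting interval. The grey band runs from 0.882 to 1.26, the middle 50% of the 10181 compared genes read in both libraries, the solid line marks 1 and the dotted lines mark 2-fold. Nr4a2 lies at 0.145, Junb at 0.653 and Fos at 0.703, all left of the band, while Nr4a1 at 1.44 and Nr4a3 at 1.34, with a wide interval, lie right of it.

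AP-1 genes were the most abundant and were the ones whose smaller differences the depth could resolve. Junb, a Jun family member that restrains as well as supports AP-1 targets, was the highest of the 10 in both libraries. It was at 108 RPKM in CD4 (105 to 111, 4932 reads) against 166 RPKM in CD8 (162 to 170, 7279 reads), which placed it at rank 531 of the compared genes in CD4 and rank 306 in CD8. The ratio was 0.653 (0.630 to 0.677). Of compared genes, 7.0% lay further toward CD8.

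Fos, which cannot bind DNA well without a Jun partner, was at 49.5 RPKM in CD4 (47.6 to 51.4, 2558 reads) against 70.4 RPKM in CD8 (68.1 to 72.8, 3508 reads). It too was lower in CD4, with a ratio of 0.703 (0.668 to 0.740), and 9.40% of compared genes lay further toward CD8. Jun, the strong transactivator of the family, went the other way, at 56.0 RPKM in CD4 (54.4 to 57.7, 4418 reads) against 47.8 RPKM in CD8 (46.3 to 49.4, 3633 reads), a ratio of 1.17 (1.12 to 1.23). Jund, the member usually present in resting cells, was at 42.1 RPKM in CD4 (40.6 to 43.6, 2994 reads) against 47.5 RPKM in CD8 (45.9 to 49.2, 3263 reads). Its ratio of 0.885 (0.842 to 0.930) is below 1, but its log2 difference of -0.17 was 0.04 after rescaling both libraries to sum to 1000000. The other signs in this family held under each scaling tried, but sizes moved by more than the counting intervals. After rescaling to 1000000 the ratios were 0.757 (0.730 to 0.785) for Junb, 0.815 (0.774 to 0.858) for Fos and 1.36 (1.30 to 1.42) for Jun. When centred on the median gene, log2 differences were -0.69 for Junb, -0.58 for Fos and 0.14 for Jun. As deposited they were -0.61, -0.50 and 0.23.

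Junb made up a smaller share of Jun family RNA in CD4. It held 52.5% of the summed Jun, Junb and Jund RPKM in CD4 and 63.5% in CD8. Jun held 27.1% in CD4 and 18.3% in CD8, and Jund held 20.4% in CD4 and 18.2% in CD8. The ratio of Junb to Jun was 1.93 in CD4 and 3.47 in CD8, with a quotient of 0.557 (0.526 to 0.590). Fos was below Jun in CD4, at a ratio of 0.883, and above it in CD8, at 1.47, with a quotient of 0.600 (0.561 to 0.641). Fos and Junb kept close to each other, with a Fos to Junb ratio of 0.457 in CD4 and 0.424 in CD8 and a quotient of 1.08 (1.01 to 1.15). Of the 45 pairs of members computed, these were chosen for description after their values were seen.

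**Figure D4:**
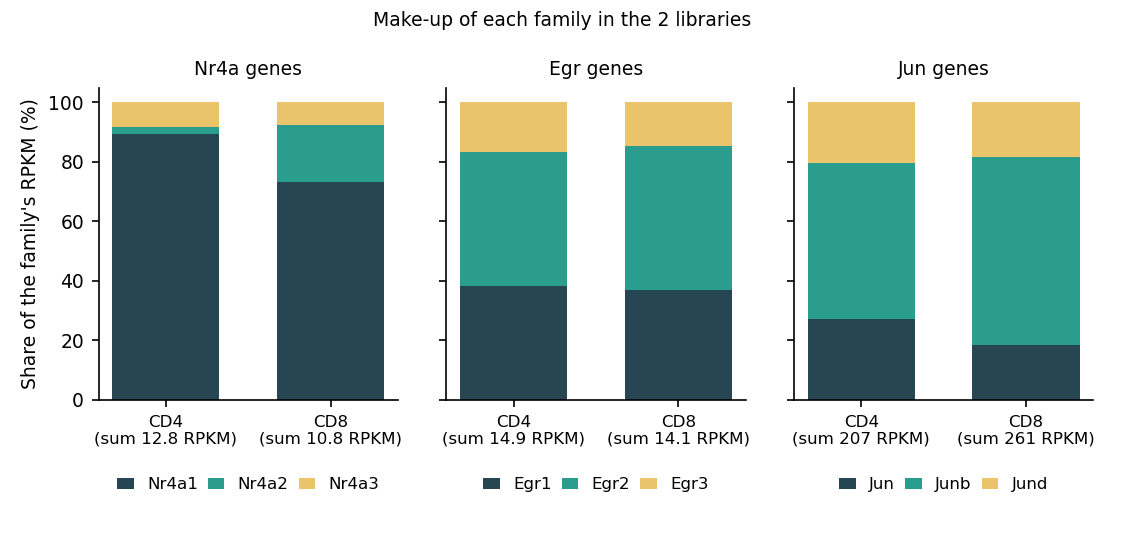
Share of each family's summed RPKM (y axis, %) held by each gene in the naive CD4 (left bar) and naive CD8 (right bar) library, with the family sums under the bars. Nr4a2 holds 2.37% of the Nr4a sum in CD4 and 19.3% in CD8, Junb holds 52.5% of the Jun family sum in CD4 and 63.5% in CD8, and the Egr shares are close to equal.

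The order of the levels was Junb, Jun, Fos, Jund, Nr4a1, Egr2, Egr1, Egr3, Nr4a3 and Nr4a2 from high to low in CD4, and Junb, Fos, Jun, Jund, Nr4a1, Egr2, Egr1, Nr4a2, Egr3 and Nr4a3 in CD8. Neighbours whose counting intervals overlapped were Egr2 and Egr1 in CD4, and Jun and Jund, Nr4a1 and Egr2, and Nr4a2 and Egr3 in CD8. Nr4a2 was thus the lowest gene in CD4 and level with Egr3 in CD8. Among members at 5 RPKM or more, Junb had the largest log2 difference, -0.61. The 3 genes nearest to it over log2(RPKM + 1) in these 2 libraries were Cox6b1, at 103 RPKM in CD4 against 161 RPKM in CD8, Tagln2, at 115 RPKM in CD4 against 173 RPKM in CD8, and Cd48, at 108 RPKM in CD4 against 152 RPKM in CD8. With 2 libraries this likeness means only similar levels.

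Other bZIP genes of the AP-1 network included some with differences in the direction of Nr4a2. Of 16 listed, 10 were compared, of which 0 passed 2-fold toward CD4 and 2 passed it toward CD8, with a median log2 difference of -0.01. Fosl2, the Fos relative Fra-2, was at 2.17 RPKM in CD4 against 6.22 RPKM in CD8, a ratio of 0.348 (0.305 to 0.397). Maff, a small Maf protein that lacks a transactivation domain, was at 1.73 RPKM in CD4 against 5.09 RPKM in CD8, a ratio of 0.341 (0.259 to 0.444). Its relative Mafk was at 26.3 RPKM in CD4 against 36.1 RPKM in CD8. Batf, a Jun partner in T cells, was nearly equal at 36.3 RPKM in CD4 against 35.2 RPKM in CD8. Fosb, a close relative of Fos that was named after its values were seen, was at 4.95 RPKM in CD4 against 5.23 RPKM in CD8, a ratio of 0.946 (0.830 to 1.08).

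Of the factors that turn immediate early genes on, all 14 compared genes of 16 listed SRF, Elk, CREB, CRTC and MEF2 factors lay within 1.5-fold, with a median log2 difference of 0.11. Srf was at 32.3 RPKM in CD4 against 30.2 RPKM in CD8, a ratio of 1.07 (0.994 to 1.15). Elk4, a partner of SRF, was at 52.6 RPKM in CD4 against 42.8 RPKM in CD8, and Elk3, a related factor that can repress, was at 11.01 RPKM in CD4 against 14.8 RPKM in CD8. Some differences were larger than counting error, with ratios of 0.743 (0.687 to 0.803) for Elk3 and 1.35 (1.25 to 1.47) for Crtc3, a CREB coactivator. The 12 compared genes of 13 for the MAP kinases that act on these factors and for the turnover of Jun proteins also all lay within 1.5-fold, with a median of 0.12. Rps6ka1, the kinase RSK1 downstream of ERK, was the highest of them, at 99.97 RPKM in CD4 against 73.7 RPKM in CD8. Since 84.5% of all compared genes lay within 1.5-fold, these counts set neither list apart.

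Other immediate early genes had a median toward CD8 whose size depended on the low genes and on the scaling. Of 36 listed, 34 were compared, 12 above 0 and 22 below 0 on the log2 scale, with a median of -0.29 beside 0.08 for all compared genes. None passed 2-fold toward CD4, and 4 passed it toward CD8. Tnfaip3, which encodes A20, an inhibitor of NF-kB signalling, was at 32.8 RPKM in CD4 against 118 RPKM in CD8, a ratio of 0.277 (0.267 to 0.288). Sik1, a CREB-induced kinase that keeps CRTC coactivators in check, was at 7.31 RPKM in CD4 against 19.4 RPKM in CD8, a ratio of 0.377 (0.347 to 0.409). Nfil3, a bZIP repressor, was at 1.16 RPKM in CD4 against 4.19 RPKM in CD8, a ratio of 0.276 (0.202 to 0.372). Ier3, a stress and survival gene, was at 0.149 RPKM in CD4, with at least 2 reads, and 4.24 RPKM in CD8, with at least 55. The 2 genes with the highest mean level went the other way, with Btg2, an antiproliferative gene, at 163 RPKM in CD4 against 105 RPKM in CD8, and its relative Btg1 at 143 RPKM in CD4 against 129 RPKM in CD8. Dusp2, a phosphatase that acts on MAP kinases and was named after its values were seen, was the highest of the list in CD8, at 97.5 RPKM in CD4 against 162 RPKM in CD8. The median of the list was -0.05 after rescaling both libraries to sum to 1000000 and -0.06 over genes at 5 RPKM or more. That rescaling adds 0.21 to the log2 RPKM ratio of every gene, so it moves the median gene as well. When centred on the median gene the list median was -0.37. Of the 34 genes, 22 lay below the median gene and 12 above it. The count past 2-fold toward CD8 was 2 over genes at 5 RPKM or more and 1 with a pseudocount of 5 RPKM.

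Genes linked to Egr and Nr4a activity downstream of the T cell receptor went in both directions. Of 20 listed, 17 were compared, 13 above 0 and 4 below 0, with a median of 0.28. Cd5, whose surface level tracks self-reactivity, was at 289 RPKM in CD4 against 120 RPKM in CD8, a ratio of 2.42 (2.32 to 2.52). Folr4, a folate receptor family protein, was at 56.0 RPKM in CD4 against 20.01 RPKM in CD8, and Cd200, an inhibitory ligand, was at 6.42 RPKM in CD4 against 2.65 RPKM in CD8. These 3 passed 2-fold toward CD4. Ikzf2, which encodes Helios, was at 1.07 RPKM in CD4 against 5.38 RPKM in CD8, and Id2, an inhibitor of E proteins, was at 31.8 RPKM in CD4 against 66.2 RPKM in CD8. These 2 passed 2-fold toward CD8. Cd200, with a log2 difference of 1.02, and Id2, with -1.03, lay close to the cutoff. The count toward CD8 was 1 under both rescalings and 0 with a pseudocount of 5 RPKM. The count toward CD4 was 4 after rescaling to 1000000, 2 with a pseudocount of 5 RPKM and 2 when centred on the median gene. The list was chosen with earlier results of these libraries known, so its direction is no separate evidence.

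**Figure D5:**
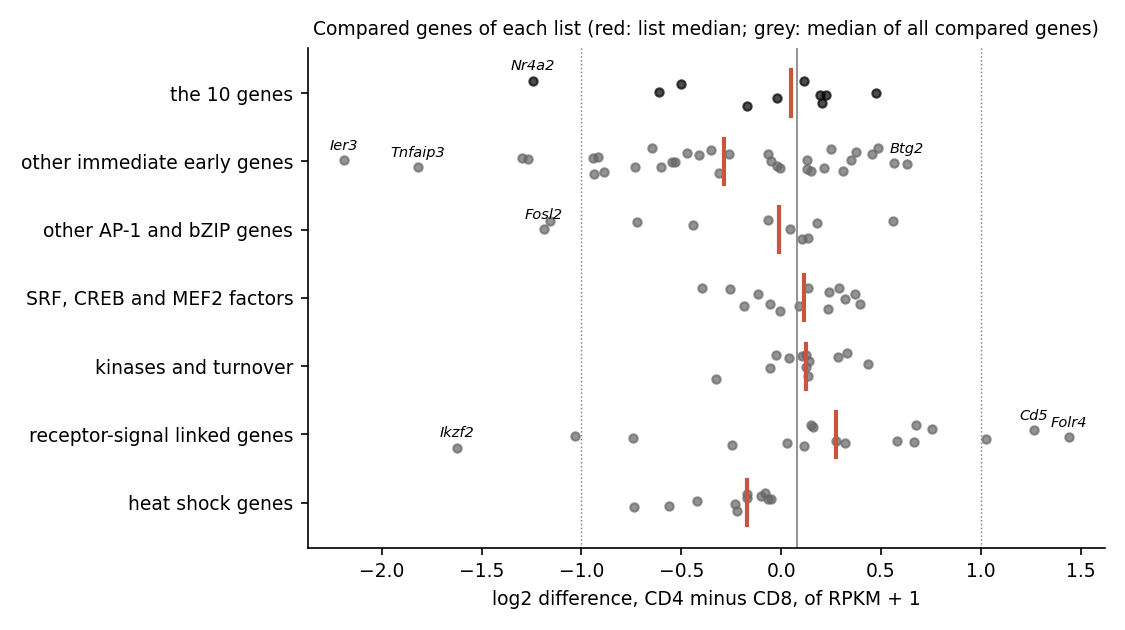
Log2 difference (CD4 minus CD8, of RPKM + 1) of the compared genes in each list, 1 point per gene with vertical scatter for display only; red bars mark list medians, the grey line the median of all compared genes at 0.08, and dotted lines 2-fold. The other immediate early genes have their median at -0.29, the SRF, CREB and MEF2 factors and the kinases all lie within 1.5-fold, and Nr4a2 stands apart from the other 9 genes at -1.24.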

How the data were processed

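Reads from 1 naive CD4 and 1 naive CD8 library, prepared with the SOLiD low-input whole-transcriptome method per the labels' protocols, were handled with TopHat and HTSeq on mouse build mm9, per the submitters' processing notes. Versions, annotation, strand setting and treatment of multi-mapping reads are not stated in the labels or those notes. The authors deposited RPKM, with 26882 rows for 23167 symbols. Repeated rows of a symbol (Nr4a2 had 2) were identical and counted once.

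Whole reads were recovered from the RPKM at the library totals that made gene lengths whole. This worked for 12733 of 12735 genes above 0 in both libraries, within the rounding of the values as printed (9 decimals, or 10 significant digits), and for 1 of 1062 genes with the CD8 total moved by 1000 reads. The scale of the totals came from GENCODE M21 transcript lengths. The smallest whole reads were used, so true reads may be a whole multiple, 6 times for Nr4a3 if its annotated length is right, and intervals err on the wide side. Lengths for Jun, Junb and Jund (3186, 1839 and 2877 bases) were 1 base under the RefSeq gene spans.

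Differences are log2((CD4 RPKM + 1)/(CD8 RPKM + 1)), which understates low genes, over genes at 1 RPKM or more in at least 1 library. A size of 1 counts as 2-fold. Ratios use RPKM without a pseudocount, with exact (Clopper-Pearson) 95% intervals from the split of reads. Quotients of ratios between genes have Wald intervals on the log scale. Python 3.11.15, scipy 1.17.1 and pandas 2.3.3 were used. The members, the gene lists and the motifs were chosen with earlier results of these data known. Of list genes, the 2 highest, the 2 with the largest difference and those at least 2-fold apart could be named. A listed 0 is not read as low expression, since the ribosomal protein gene Rpl26 is listed at 0 in both libraries. Alternatives were other pseudocounts, filters, scalings and a 1.5-fold size.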

Additional observations from a re-analysis of the deposited data

How the results depend on the processing

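The count of 0 genes at least 2-fold higher in CD4 held under each pseudocount, filter and scaling tried. The count of 1 in CD8, Nr4a2, was 0 with a pseudocount of 5 RPKM and 0 with a minimum of 5 RPKM, which removes Nr4a2, and it was 2 at a size of 1.5-fold, which adds Junb. The median log2 difference of the 10 genes, 0.05, was 0.25 after rescaling both libraries to sum to 1000000 and -0.03 when centred on the median gene. Over all compared genes, the counts past 2-fold were 428 in CD4 and 462 in CD8 with a pseudocount of 0.1 RPKM, 73 in CD4 and 125 in CD8 with 5 RPKM, and 152 in CD4 and 208 in CD8 with the minimum of 5 RPKM. Log2 differences of single members kept their sign in 64 of 67 comparisons with an alternative. A change of pseudocount or filter cannot change a sign, so only the scalings could test it. The 3 exceptions were all under scalings, Egr2 under both rescalings and Jund under rescaling to 1000000. Of the 67 comparisons, 13 changed sign or moved by more than the half-width of the counting interval. In 1 more, Nr4a2 fell under 2-fold. No paired analysis was possible because each cell type has 1 library. At the smallest possible reads, the ratios of Nr4a3, Nr4a2 and Egr3 have the widest intervals.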

Other observations

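Heat shock genes, which cells induce under protein stress, lay on the CD8 side as deposited, and at a median of 0.03 after rescaling both libraries to sum to 1000000. Of 12 listed, 11 were compared and all 11 were below 0 on the log2 scale, with 0 at least 2-fold apart and a median of -0.17. The rescaling adds 0.21 to the log2 RPKM ratio of every gene and so moves the median gene as well. All 11 lay below the median gene, with a list median of -0.25 when centred on it. The highest were near equal, Hspa8 at 937 RPKM in CD4 against 1005 RPKM in CD8 and Hsp90ab1 at 286 RPKM in CD4 against 302 RPKM in CD8. The largest differences were in Hsph1, at 13.6 RPKM in CD4 against 23.4 RPKM in CD8, and in the inducible gene Hspa1b, at 8.52 RPKM in CD4 against 13.0 RPKM in CD8. Hspa1b has a near-identical copy that can share its reads. Whether the heat shock and AP-1 values share a source was not tested.

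The compared partners and corepressors of these factors all lay within 1.5-fold, as did 84.5% of all compared genes. Rxrb, the retinoid X receptor that can pair with Nr4a1 and Nr4a2, was at 22.4 RPKM in CD4 against 18.8 RPKM in CD8. Rxra was at 5.01 RPKM in CD4 against 4.21 RPKM in CD8. The CD4 over CD8 ratios of 1.19 (1.11 to 1.29) for Rxrb and 1.19 (1.06 to 1.34) for Rxra were larger than counting error. Nab1 and Nab2, corepressors that bind Egr proteins, were at 22.2 RPKM in CD4 against 24.1 RPKM in CD8 for Nab1, and 28.8 RPKM in CD4 against 27.4 RPKM in CD8 for Nab2. Their CD4 over CD8 ratios were 0.921 (0.874 to 0.971) for Nab1 and 1.05 (0.983 to 1.12) for Nab2. Egr4 and Rxrg were listed at 0 in both libraries.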
